A study of Mus musculus with 56 samples.

Results

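The comparison described here is that of the efferent ductules with the initial segment of the epididymis in 3-month-old C57BL/6 mice, across all measured genes. It used the 4 efferent ductule libraries and the 4 initial segment libraries of that age, which are 8 of the 56 RNA-seq libraries of an atlas of the male reproductive tract. Besides these regions, the atlas sampled testis, vas deferens and the caput, corpus and cauda of the epididymis, at 3 and 21 months. The mice carried no transgene and received no treatment according to the labels. Each library is whole tissue, so it holds the duct epithelium together with muscle, vessels, connective tissue, immune cells and whatever lay in the lumen. Libraries were chosen by their region and age alone, and no measured value entered that choice. The same regions at 21 months, another 8 libraries, served to show which differences recurred and where the region effect differed by age.

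The efferent ductules carry sperm from the rete testis to the epididymis. Their epithelium mixes multiciliated cells, whose beating stirs the lumen, with absorptive cells that take back most of the testicular fluid by sodium-driven water uptake and take up protein by receptor-mediated endocytosis. The initial segment follows directly and is built of tall principal cells with a large secretory apparatus, whose upkeep depends on factors from the testis that arrive in the lumen (lumicrine signaling) and act through the receptor tyrosine kinase ROS1 and the ERK cascade.

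The ductule libraries held 14627147 to 15631528 counts and the initial segment libraries 14293391 to 17500627. Between 26156 and 29392 genes had at least 1 count in a library. Levels are given as CPM, counts per 1000000 counts of the library, with library sizes scaled by the trimmed mean of M values (TMM). The scaling factors were 1.12 to 1.24 in the ductules and 0.820 to 0.881 in the initial segment. Values are listed from replicate 1 to replicate 4, and a fold change is that of the ductules over the initial segment on the log2 scale. The value after ± is the absolute fold change divided by the square root of the F statistic of its test. It is only an approximate standard error, and with few counts in either region it can be smaller than counting error. The initial segment library of replicate 4 stood apart: it held 10 of the 25 values that lay far from the other 3 of their group among 312 groups examined, some high and some low. In bulk tissue, fewer cells of a type and less RNA per cell cannot be told apart.

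Of 26414 genes tested, 5481 were higher in the ductules and 3596 in the initial segment, at a Benjamini-Hochberg adjusted p under 0.05 and at least a 2-fold difference. These are 20.8% and 13.6% of the genes tested, or 34.4% together, and they are the background for every count below. A difference of at least 4-fold was met by 3176 and 1740 genes, or 12% and 6.59%. In 28.6% of the genes all 4 ductule libraries lay above all 4 initial segment libraries, and in 27.7% the reverse held. The median log2 fold change over all genes was 0.06, with quartiles of −0.63 and 1.03. Without TMM, on library sizes only, the median moved to 0.51 and the split became 7781 against 2298, so small fold changes depend on the scaling, and those reported here are relative to the TMM median. Protein-coding genes made up 65.2% of the genes higher in the ductules and 66.3% of those higher in the initial segment. Of the genes higher in the ductules, 2791 (50.9%) had their highest mean among the 7 regions in the ductules and 1356 in the testis. Of those higher in the initial segment, 1618 (44.99%) peaked there, 637 in the testis and 443 in the caput.

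The largest differences were not alike on both sides of this border. Apart from fat markers, members of the lists higher in the ductules reached a fitted log2 fold change of at most 4.76 (Amn), whereas those of the secreted genes of the initial segment reached −16.84 (Adam28), with the ductule libraries at or near 0 counts, where the fitted size depends on the prior count.

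**Figure D1:**
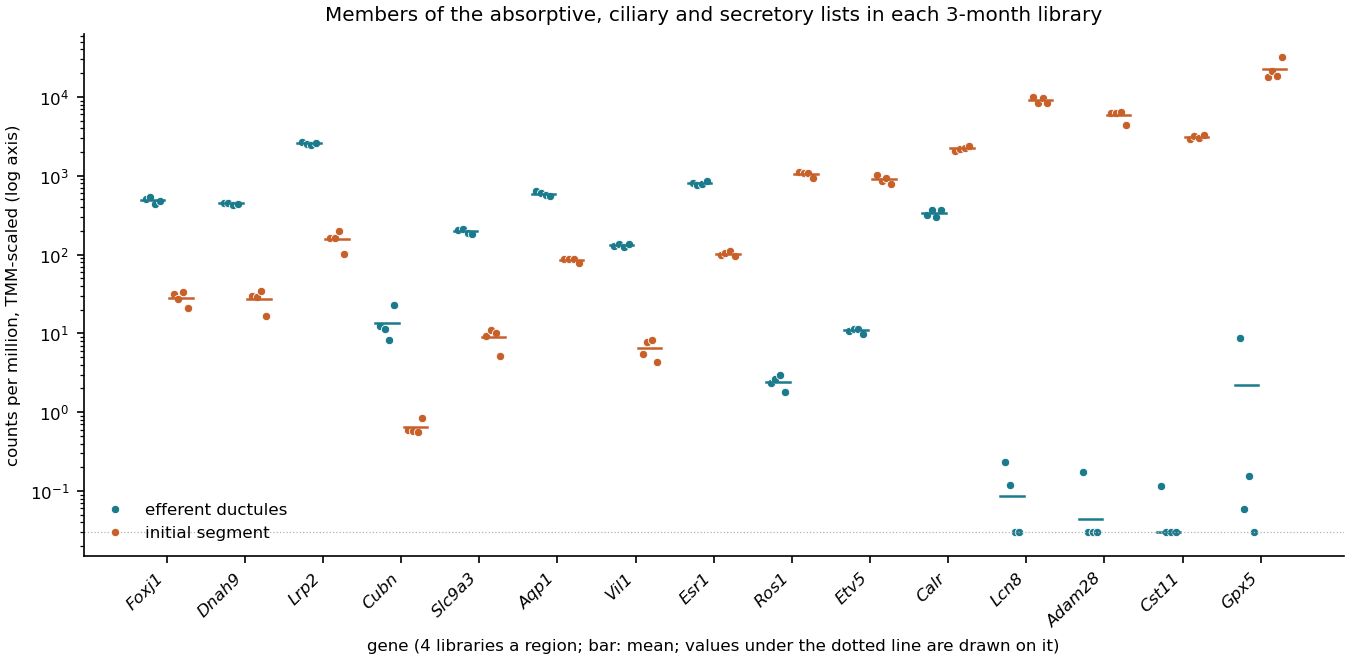
Levels of 15 named genes in each 3-month library (CPM, log axis), with the efferent ductules in blue, the initial segment in orange and bars at the group means. The genes of cilia, endocytosis and transport on the left lie above 4 CPM in every initial segment library except those of Cubn, which lie between 0.554 and 0.848, whereas Lcn8, Adam28 and Cst11 lie at or under 0.232 in every ductule library.

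Genes of motile cilia were higher in the ductules. All 44 axoneme genes (dynein arms, radial spokes, tektins and their assembly factors) were called higher there, with fold changes between 1.95 and 4.34 and a median of 3.41, and none overlapped between the 4 and 4 libraries. Tmem212, a gene of ciliated epithelia, had 83.5, 75.1, 84.7 and 70.7 CPM in the ductules and 3.60, 3.95, 5.47 and 2.31 CPM in the initial segment, a difference of 4.34 ± 0.16 (adjusted p = 6.15e-11). Dnah9, an outer-arm dynein heavy chain, had 455, 457, 431 and 443 against 30.1, 29.1, 34.5 and 16.7 CPM, a difference of 4.01 ± 0.20 (adjusted p = 2.05e-07). The inner-arm heavy chain Dnah10 (4.11 ± 0.24), Cfap65, a protein of the central apparatus (4.19 ± 0.24), Dnah6 (3.804 ± 0.21) and Ccdc153 (3.84 ± 0.19) followed the same pattern. In each of these genes the initial segment was not at 0, and its replicate 4 was the lowest of the 4 libraries. The summed level of the list was 6394 to 6519 CPM in the ductules and 574, 613, 629 and 368 CPM in the initial segment.

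Of the 12 regulators of the multiciliated state, 11 were higher in the ductules and 1 in the initial segment, with a median of 3.48. Foxj1, the master regulator of motile cilium genes, had 506, 539, 441 and 482 CPM in the ductules and 31.9, 27.0, 33.2 and 20.8 CPM in the initial segment (4.12 ± 0.13, adjusted p = 1.56e-11). Gmnc, which starts the multiciliated program, had 25.4, 23.1, 23.7 and 28.2 against 2.18, 2.85, 2.35 and 0.771 CPM (3.60 ± 0.22, adjusted p = 7.69e-09). The groups were far apart for both genes. Mcidas, the partner of Gmnc that acts in cells building their cilia, was low in both regions, at 1.49 to 1.80 and 0.389 to 1.08 CPM (1.31 ± 0.34, adjusted p = 0.0031). Trp73, which acts upstream of Foxj1, differed by 4.24 ± 0.12, Ccdc78 by 4.396 ± 0.33, Cdc20b by 3.70 ± 0.57 and Myb by 3.51 ± 0.11. The exception was Ccno, a cyclin-like protein needed for centriole amplification, with 8.31 to 13.2 CPM in the ductules and 35.2 to 55.1 CPM in the initial segment (−1.99 ± 0.18, adjusted p = 1.64e-06), and with its highest mean of the 7 regions in the caput.

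RFX factors work with FOXJ1 on cilium genes, so the RefSeq promoter windows (GRCm38.p6, the 250 bases before the start) were searched on both strands for the letters GTTGCC. They occurred in 14 of 36 axoneme genes and 5 of 11 multiciliated regulators with a window, and in 11.8% of the 27025 genes with one. Among other lists they were in 7 of 22 brush border windows and 3 of 11 lysosomal windows. A match is a description of the letters and not a measured binding site, and none of the letter strings searched here and below holds another. The windows of 2 of the leading axoneme genes, Dnah10 at chr5:124724835-124725084 and Ccdc153 at chr9:44240427-44240676, both on the plus strand, are shown 5′ to 3′ with the match in capitals.
Dnah10: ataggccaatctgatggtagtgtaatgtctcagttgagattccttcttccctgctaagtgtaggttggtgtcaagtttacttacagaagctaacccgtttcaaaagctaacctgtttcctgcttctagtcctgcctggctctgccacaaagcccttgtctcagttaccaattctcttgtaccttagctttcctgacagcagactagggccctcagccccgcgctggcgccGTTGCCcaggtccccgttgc
Ccdc153: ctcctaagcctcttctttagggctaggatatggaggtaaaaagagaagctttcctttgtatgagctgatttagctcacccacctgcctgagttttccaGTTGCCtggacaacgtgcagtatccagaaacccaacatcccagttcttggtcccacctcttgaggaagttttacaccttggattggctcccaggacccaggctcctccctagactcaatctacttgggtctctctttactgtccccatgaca

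Genes of receptor-mediated uptake were mostly higher in the ductules, with 7 of 9 endocytic receptors and adaptors called there, 2 higher in the initial segment and a median of 1.92. Lrp2 (megalin), the main protein scavenger receptor of absorptive epithelia, had 2701, 2495, 2443 and 2632 CPM in the ductules and 163, 164, 199 and 101 CPM in the initial segment (4.03 ± 0.20, adjusted p = 2.22e-07). Its partner Cubn (cubilin) was much less abundant, with 12.2, 11.3, 8.29 and 22.8 against 0.586, 0.584, 0.554 and 0.848 CPM (4.398 ± 0.39, adjusted p = 2.22e-06). Per kilobase of exon the ductule means were 154 CPM for Lrp2 and 0.915 CPM for Cubn. Amn, which brings cubilin to the surface, had 3.86 to 5.43 against 0.0838 to 0.259 CPM (4.76 ± 0.32). Fcgrt, the neonatal Fc receptor, differed by 2.45 ± 0.12 and the adaptor Dab2 by 1.92 ± 0.25, or by 2.24 without initial segment replicate 4. Both genes that went the other way serve the same receptors: Lrpap1, the chaperone of megalin, at 67.7 to 78.3 CPM in the ductules and 206 to 230 CPM in the initial segment (−1.57 ± 0.07, adjusted p = 1.62e-12), and Clcn5, an endosomal chloride exchanger, at 39.0 to 44.8 against 119 to 286 CPM (−2.19 ± 0.28, adjusted p = 0.000424). None of the 15 lysosomal genes reached the call in either direction, with a median of −0.39, although in 11 all initial segment libraries lay above all ductule libraries and in 2 the reverse held. Without ductule replicate 1 or 2, 1 or 2 of them were called for the initial segment, and without initial segment replicate 4, or on library sizes only, 1 for the ductules.

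Genes known from the proximal tubule of the kidney were higher in the ductules. Of 24 tested brush border and proximal tubule genes (26 on the list), 15 were higher in the ductules and 1 in the initial segment, with a median of 2.82. Hnf4a, a nuclear receptor of liver and kidney, had 236 to 270 against 10.6 to 18.5 CPM (4.08 ± 0.13). Vil1 (villin), which bundles the actin of microvilli, had 125 to 135 CPM in the ductules and 4.32 to 8.31 CPM in the initial segment (4.33 ± 0.14, adjusted p = 7.94e-12). The microvillar cadherin Cdhr2 differed by 4.64 ± 0.17. Among the carriers of this list, the cystine and dibasic amino acid transporter Slc7a9 (4.498 ± 0.12), the neutral amino acid transporter Slc6a19 (4.30 ± 0.26) and the urate transporter Slc22a12 (4.24 ± 0.46, at 2.95 to 4.74 CPM in the ductules) led. Ezr (ezrin), which anchors actin to the membrane, was the single member higher in the initial segment, at 1236 to 1394 against 259 to 348 CPM (−2.09 ± 0.09, adjusted p = 5.09e-13).

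Of 9 tested water channels (10 on the list), 5 were higher in the ductules and 1 in the initial segment. Aqp1, the constitutive channel of absorptive epithelia and capillaries, had 632, 612, 567 and 554 CPM in the ductules and 87.7, 89.0, 87.1 and 78.7 CPM in the initial segment (2.79 ± 0.08, adjusted p = 1.7e-15). Aqp4, at 26.4 to 30.6 against 1.46 to 2.68 CPM, differed by 3.89 ± 0.15, and the glycerol channel Aqp7 by 3.64 ± 0.29. Aqp7 is also made by fat cells. It had 8.81, 13.3, 9.52 and 14.8 CPM in the ductules, where the summed fat markers had 1307, 1748, 1040 and 1819 CPM, and the part of fat in its value was not tested. Aqp2 and Aqp5 were under 5 CPM in every library. Aqp9, a channel for water and small solutes in the epididymis, was the only one higher in the initial segment, at 120 to 143 against 58.6 to 63.2 CPM (−1.09 ± 0.07, adjusted p = 3.07e-10). That call rests on the 2-fold threshold: the fold change was −0.97 without initial segment replicate 3, −0.63 on library sizes only and −0.99 when all 7 regions were fitted together.

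Among 22 tested ion transporters and carbonic anhydrases, 11 were higher in the ductules and 4 in the initial segment. Slc9a3 (NHE3), the sodium/proton exchanger that drives fluid uptake, had 205, 214, 189 and 182 CPM in the ductules and 9.38, 10.96, 10.2 and 5.17 CPM in the initial segment (4.45 ± 0.18, adjusted p = 6.77e-09). The sodium pump subunit Atp1b1 (2.68 ± 0.08), the chloride/bicarbonate exchanger Slc26a3 (3.09 ± 0.09), the sodium-potassium-chloride cotransporter Slc12a2 (2.72 ± 0.09) and the potassium channel Kcnj16 (3.59 ± 0.13) were higher on the same side. In the exchanger family of Slc9a3, Slc9a2 (NHE2) went the opposite way, with 4.04 to 4.63 CPM in the ductules and 23.7 to 37.1 CPM in the initial segment (−2.87 ± 0.14, adjusted p = 3.56e-12). Cftr, the cyclic AMP-gated chloride channel of secretory epithelia, had 70.8 to 79.3 CPM in the ductules and 209 to 277 CPM in the initial segment (−1.72 ± 0.08, adjusted p = 4.9e-12). Car12, a membrane carbonic anhydrase, ranged from 7.41 to 29.0 CPM in the initial segment (−2.35 ± 0.52, adjusted p = 0.00646, and −1.75 without its replicate 4).

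**Figure D2:**
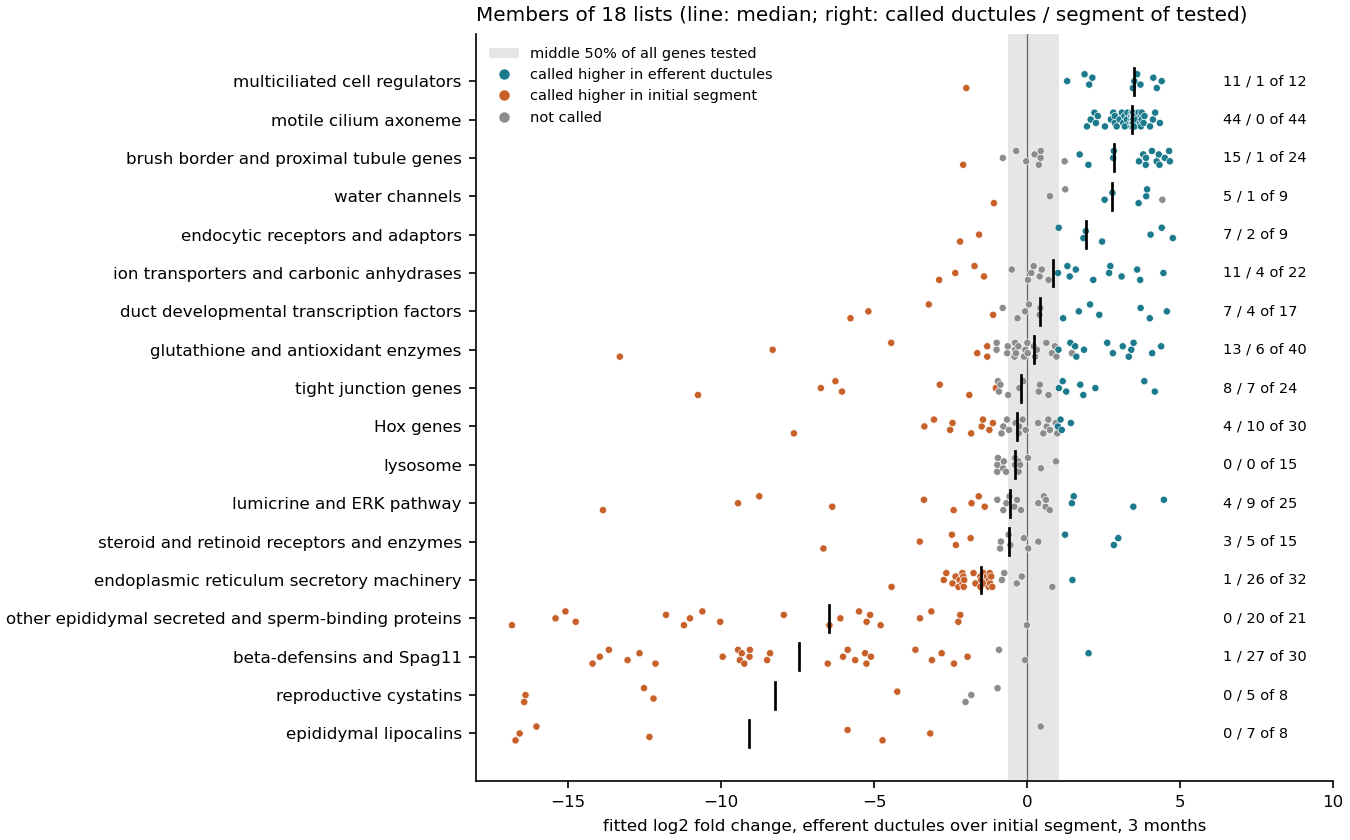
Fitted log2 fold change of each tested member of 18 lists at 3 months, positive where the efferent ductules are higher, with a line at each median and the counts called for the ductules and the initial segment at the right. The grey band is the middle 50% of all genes tested, from −0.63 to 1.03, and the axoneme genes lie wholly above it.

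Steroid and retinoid receptors and enzymes were divided, with 3 of 15 higher in the ductules and 5 in the initial segment. Esr1 (estrogen receptor alpha), which the ductules need to reabsorb fluid, had 806, 770, 782 and 859 CPM in the ductules and 97.6, 105, 110 and 95.6 CPM in the initial segment (2.98 ± 0.08, adjusted p = 7.04e-16). Esr2 (estrogen receptor beta) ran the other way at a low level, with 0 to 0.206 against 8.04, 7.13, 7.69 and 14.3 CPM (−6.66 ± 0.49, adjusted p = 5.13e-08). Gper1, a membrane estrogen receptor, had 1.54 to 2.67 against 19.9 to 29.9 CPM (−3.51 ± 0.18). Srd5a1, which makes dihydrotestosterone, differed by −2.46 ± 0.11, Rarb by −2.33 ± 0.38 and Pgr, a target of estrogen receptors, by 2.84 ± 0.30 at 3.77 to 4.55 CPM in the ductules.

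The lumicrine and ERK list was led by genes of the initial segment. Of its 25 genes 4 were higher in the ductules and 9 in the initial segment, and on library sizes only the first count rose to 8. The receptor Ros1 had 2.32, 2.65, 2.93 and 1.82 CPM in the ductules and 1110, 1096, 1074 and 945 CPM in the initial segment (−8.75 ± 0.13, adjusted p = 3.37e-19). Nell2, the testis-derived ligand of ROS1, was low in both, at 3.42 to 5.86 against 0.0771 to 0.762 CPM (3.47 ± 0.38), and highest of the 7 regions in the testis. Ovch2, a secreted protease whose loss leaves sperm unable to fertilize, had 0.154 to 0.236 CPM in the ductules and 3009, 3133, 2704 and 2496 CPM in the initial segment (−13.86 ± 0.16, adjusted p = 4.09e-20).

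The ETS factors Etv1, Etv4 and Etv5, which act downstream of this pathway, were higher in the initial segment. Etv4 had 0.171 to 0.580 against 220 to 293 CPM (−9.45 ± 0.21), Etv5 9.90 to 11.5 against 792 to 1010 CPM (−6.37 ± 0.10) and Etv1 15.1 to 22.5 against 93.2 to 108 CPM (−2.40 ± 0.10). The phosphatase Dusp6, a feedback target of ERK, had 26.4 to 36.5 against 306 to 398 CPM (−3.37 ± 0.11). Ptpn6, a phosphatase that restrains ROS1 signaling, was not called, at 15.99 to 23.1 against 22.0 to 25.8 CPM (−0.33 ± 0.11, adjusted p = 0.0165). Of the FGF receptors, Fgfr4 (4.47 ± 0.21), Fgfr2 (1.52 ± 0.07) and Fgfr3 (1.46 ± 0.09) were higher in the ductules, and Fgfr1 was under 2-fold (0.60). The ETS core GGAAGT occurred in 4 of 16 promoter windows of the list and in 22.2% of all genes with a window.

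Genes of secreted epididymal proteins were higher in the initial segment. The 82 genes of the 4 secretory lists and Gpx5 held 8.59%, 9.46%, 9.08% and 10.2% of all counts in the initial segment. In ductule libraries they held 0.151% to 0.177%. Of 8 lipocalins, carriers of small hydrophobic molecules, 7 were higher in the initial segment and none in the ductules, with a median of −9.11. The genes Lcn8, Lcn5, Lcn6, Lcn10 and Lcn9 lie in this order on the plus strand of chr2:25653120-25825537 (GRCm38).

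Lcn8 (chr2:25653120-25656217) had 9987, 8269, 9708 and 8279 CPM in the initial segment and 0.232, 0.118, 0 and 0 CPM in the ductules (−16.58 ± 0.25, adjusted p = 3.45e-15). Lcn9 (chr2:25823153-25825537) had 7333, 7340, 6931 and 6082 CPM against 0.232, 0, 0 and 0 CPM (−16.72 ± 0.27, adjusted p = 2.81e-14). At so few ductule counts the values after ± of Lcn8 and Lcn9 are smaller than counting error. The same holds for Ovch2, Rnase10, Ly6g5c and 9230104L09Rik. Lcn10 had 1386 to 1578 CPM and only 1 count in the 4 ductule libraries together, and Lcn6 had 145 to 266 CPM and 2 counts. Set against those counts the ratios were 105136 (95% counting interval 18870 to 4152670) for Lcn10 and 6664 (1845 to 55028) for Lcn6, and these intervals cover counting error only. Lcn5 had 27.98 to 57.9 CPM, and its 2.61 CPM in ductule replicate 1 against 0 to 0.0569 in the others set its fold change, which was −5.87 with and −10.49 without that library. Lcn12 ranged from 14.7 to 92.7 CPM in the initial segment (−4.72 ± 0.86, and −3.82 without replicate 4). Lcn2, an iron-siderophore carrier of innate immunity, was present on both sides, at 537 to 750 and 5276 to 6465 CPM (−3.17 ± 0.10). Ptgds, which makes prostaglandin D2 and is a lipocalin by fold, was not called (0.44 ± 0.45, adjusted p = 0.442), but passed the threshold at 1.05 in favor of the ductules without initial segment replicate 4, where it had 129 CPM against 32.0 to 57.1 CPM in the others.

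Of 8 reproductive cystatins, protease inhibitors of the tract, 5 were higher in the initial segment and none in the ductules, with a median of −8.23. Cst11 had 2938, 3154, 2997 and 3312 CPM against 2 counts in all 4 ductule libraries, a ratio of 110389 (30559 to 911520). Cst8 had 1801, 1823, 1792 and 1635 CPM against 0.348, 0.0590, 0.823 and 0.171 CPM (−12.21 ± 0.26, adjusted p = 9.43e-12). The cystatin 9230104L09Rik had 5020 to 6370 CPM against 0 to 0.114 CPM (−16.44 ± 0.20), Cst12 410 to 670 CPM (−12.52 ± 0.51) and Cst13 only 1.09 to 1.94 CPM (−4.24 ± 0.56).

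Beta-defensins, cationic peptides that coat sperm and act against microbes, were tested in 30 of 44 listed genes together with the related Spag11 genes. In the initial segment 27 were higher and in the ductules 1, with a median of −7.46, or −6.27 with genes at 0 on 1 side set to their bound. Under a stricter filter on low counts, which tests fewer genes, 16 were higher in the initial segment. Defb25 had 2864, 2460, 3062 and 3003 CPM in the initial segment against 0.103 to 0.354 CPM (−13.67 ± 0.18, adjusted p = 1.1e-19), and Defb48 2515, 1766, 2076 and 1652 CPM against 0.0515 to 0.228 CPM (−14.20 ± 0.27, adjusted p = 3.5e-13). Defb20 had 2900, 3168, 3187 and 5206 CPM (−12.67 ± 0.37) and Spag11b 1631 to 3412 CPM, and in both replicate 4 was the highest. Defb41 had 299 to 455 CPM against 1 count, a ratio of 25031 (4493 to 988672). Defb18 was uneven, with 34.3, 99.8, 50.1 and 214 CPM against 1 count, a ratio of 7085 (1272 to 279840). Defb36 was the member higher in the ductules, at 3.45 to 4.41 against 0.485 to 1.59 CPM (2.01 ± 0.29), and was highest of the 7 regions in the testis. Members of these families are close copies of each other, and reads shared between them could be assigned either way.

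The remaining secreted and sperm-binding proteins were higher in the initial segment in 20 of 21 cases, with none higher in the ductules and a median of −6.46. Adam28, a membrane protease of the ADAM family, had 6167, 6280, 6530 and 4451 CPM against 3 counts in the ductules, a ratio of 139031 (47574 to 674177). Adam7, its neighbor on chromosome 14 and a protein that epididymal cells pass to sperm, had 8357 to 11544 CPM against 0.569 to 4.35 CPM (−11.80 ± 0.48). Rnase10, a secreted member of the ribonuclease A family, had 4991 to 5497 CPM against 0.0590 to 0.174 CPM (−15.41 ± 0.15, adjusted p = 7.03e-21), and Ly6g5c 1612 to 1956 CPM against 0 to 0.103 CPM (−14.75 ± 0.18). Crisp4, a cysteine-rich protein that binds sperm, had 239 to 303 CPM and no count in any ductule library, which makes it at least 6563-fold higher against a floor of 3 counts over the group. Teddm1a had 2545 to 3189 CPM (−11.22 ± 0.13). Its paralogue Teddm1b was uneven, with 67.7, 294, 112 and 763 CPM against 4.07 to 4.75 CPM (−6.10 ± 1.01, adjusted p = 0.00196, and −5.10 without replicate 4). Clu (clusterin), a chaperone of the lumen that peaks in the caput, had 530, 596, 449 and 1456 CPM against 124 to 194 CPM (−2.25 ± 0.44, and −1.68 without replicate 4). For Ces5a, an esterase of the corpus and cauda, the call was not stable: it had 1.84, 11.7, 6.09 and 68.3 CPM against 1.65 to 2.15 CPM (−3.50 ± 1.21, adjusted p = 0.045), and the adjusted p was above 0.05 in 5 of the 8 fits that left out 1 library. Without initial segment replicate 4 its fold change was −1.74 (adjusted p = 0.0324). The call was also lost with the replicate number as a block (−2.67, adjusted p = 0.126) and on library sizes only (−3.02, adjusted p = 0.065).

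Both steroid hormones and luminal factors are known to govern these genes, and the letters AGAACA, a core of steroid hormone response elements, were searched in the same way. They occurred in 14 of 29 defensin windows, 4 of 8 lipocalin windows and 18.2% of all genes with a window, and also in 8 of 22 brush border and 3 of 9 water channel windows. Over all genes called higher in the initial segment the share was 14.8%. The windows of a leading gene of either list, Lcn9 at chr2:25822903-25823152 on the plus strand and Defb48 at chr14:62984511-62984760 on the minus strand, are shown with the match in capitals.
Lcn9: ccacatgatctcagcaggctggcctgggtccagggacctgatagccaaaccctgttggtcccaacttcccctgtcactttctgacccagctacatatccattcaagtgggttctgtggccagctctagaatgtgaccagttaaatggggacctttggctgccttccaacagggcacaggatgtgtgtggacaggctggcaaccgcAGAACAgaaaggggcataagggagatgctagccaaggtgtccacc
Defb48: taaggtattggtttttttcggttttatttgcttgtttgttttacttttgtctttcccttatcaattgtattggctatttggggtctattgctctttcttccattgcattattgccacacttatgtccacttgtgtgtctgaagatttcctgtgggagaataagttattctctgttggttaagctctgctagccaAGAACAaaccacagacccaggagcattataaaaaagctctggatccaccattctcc

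Genes of the secretory machinery of the endoplasmic reticulum were also higher in the initial segment, by smaller folds. Of 32 genes, 26 were higher in the initial segment and 1 in the ductules, with a median of −1.51. On library sizes only the counts were 17 and 2. Sdf2l1, a component of the chaperone complex induced by unfolded protein, had 70.8, 69.2, 80.0 and 77.0 CPM in the initial segment and 3.83, 3.83, 2.73 and 3.41 CPM in the ductules (−4.43 ± 0.11, adjusted p = 4.87e-16). Calr (calreticulin), the lectin chaperone of glycoproteins, had 2078, 2194, 2270 and 2389 CPM against 319, 365, 299 and 368 CPM (−2.72 ± 0.08, adjusted p = 1.08e-14). Signal peptidase subunit Spcs3 (−2.64 ± 0.07), disulfide isomerase Pdia4 (−2.44 ± 0.07), Dnajb9 (−2.34 ± 0.09) and the chaperone Hsp90b1 (−2.25 ± 0.08) followed, all without overlap. The member higher in the ductules was Creb3l1, a membrane-bound transcription factor of collagen-secreting cells, at 17.9 to 26.7 against 5.25 to 9.83 CPM (1.48 ± 0.17).

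The letters CCACG, which end the element read by the unfolded-protein factors ATF6 and XBP1, occurred in 16 of 25 of these promoter windows and in 31.0% of all genes with a window. They were as frequent in the windows of the lysosomal list (7 of 11), none of which was called, and of the lumicrine and ERK list (10 of 16). The windows of the leading member, Sdf2l1 at chr16:17132384-17132633, and of Calr at chr8:84846932-84847181, both on the minus strand, are shown with the matches in capitals on whichever strand they fell.
Sdf2l1: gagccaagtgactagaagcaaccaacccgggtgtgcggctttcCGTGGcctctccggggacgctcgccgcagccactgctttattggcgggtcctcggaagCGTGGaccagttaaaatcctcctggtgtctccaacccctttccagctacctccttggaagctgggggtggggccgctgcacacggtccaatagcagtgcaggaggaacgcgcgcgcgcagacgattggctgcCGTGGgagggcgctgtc
Calr: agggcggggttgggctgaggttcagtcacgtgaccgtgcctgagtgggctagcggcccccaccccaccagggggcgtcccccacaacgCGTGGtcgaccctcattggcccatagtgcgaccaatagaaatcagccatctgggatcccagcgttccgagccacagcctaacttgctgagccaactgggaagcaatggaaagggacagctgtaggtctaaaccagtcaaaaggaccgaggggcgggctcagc

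Glutathione and antioxidant enzymes divided by isoform, with 13 of 40 higher in the ductules, 6 higher in the initial segment and a median of 0.24. Gpx3, the secreted selenium peroxidase, had 2022, 2330, 1579 and 2089 CPM in the ductules and 174, 170, 187 and 188 CPM in the initial segment (3.48 ± 0.11, adjusted p = 6.46e-14). Gpx5, the selenium-free peroxidase of the epididymal lumen, had 18039, 21257, 18586 and 31675 CPM in the initial segment and 8.75, 0.0590, 0.154 and 0 CPM in the ductules. Its fold change was −13.31 ± 1.28 (adjusted p = 0.000113), and −18.06 without ductule replicate 1, the one ductule library above 1 CPM. Per kilobase of exon the initial segment means of Gpx5 (13375 CPM) and Lcn8 (13918 CPM) were close. Gpx6, the neighbor of Gpx5 on chromosome 13, had 20.1 to 29.6 CPM against 0 to 0.154 CPM (−8.32 ± 0.32). Ggt1, a gamma-glutamyl transferase that breaks down luminal glutathione, had 298 to 356 CPM in the ductules and 40.3, 37.8, 41.3 and 68.6 CPM in the initial segment (2.80 ± 0.20). Ggt6 differed in the same sense (4.09 ± 0.24) and Ggt7 in the opposite one, at 5.63 to 6.43 against 125 to 144 CPM (−4.44 ± 0.09, adjusted p = 2.65e-17). Gstm3 had 0.823 to 2.49 CPM in the ductules against 3 counts in the initial segment, a ratio of 23.9 (8.17 to 116).

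Of 17 transcription factors known from duct development, 7 were higher in the ductules and 4 in the initial segment. Sall1 (119 to 146 against 3.55 to 6.94 CPM, 4.57 ± 0.14), Lhx1 (31.7 to 35.7 against 1.56 to 2.70 CPM, 4.01 ± 0.15) and Emx1 (6.09 to 8.13 against 0.259 to 0.670 CPM, 3.71 ± 0.25), factors of the embryonic kidney and its tubules, led in the ductules. Gata3 (0.910 to 2.47 against 72.5 to 93.8 CPM, −5.77 ± 0.20) and the epithelial factors Grhl2 (4.79 to 5.33 against 164 to 197 CPM, −5.19 ± 0.09) and Grhl1 (−3.21 ± 0.11) led in the initial segment. Pax2, which marks the whole embryonic duct, was not called (47.1 to 58.2 against 28.7 to 48.5 CPM, 0.43 ± 0.15). Pax8 was higher in the initial segment at 564 to 708 against 257 to 315 CPM (−1.11 ± 0.09), close to the 2-fold threshold, and lost the call without initial segment replicate 3 (−0.9992) and on library sizes only (−0.66).

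Hox genes, which set position along the body axis, were tested in 30 of 39 cases. Of these 4 were higher in the ductules and 10 in the initial segment, with a median of −0.33, and on library sizes only 9 were higher in the ductules. Among the 4 were Hoxa4, Hoxa5 and Hoxa7, with fold changes of 1.43, 1.004 and 1.09, and those of Hoxa5 and Hoxa7 lay close to the 2-fold threshold. Among genes higher in the initial segment were Hoxb7 (27.1 to 38.2 against 172 to 184 CPM, −2.52 ± 0.10), Hoxb8 (68.8 to 86.6 against 248 to 310 CPM, −1.83 ± 0.09), Hoxd9 (13.1 to 17.5 against 76.2 to 84.9 CPM, −2.44 ± 0.09) and Hoxd10 (0 to 0.413 against 1.34 to 2.56 CPM, −3.36 ± 0.50). Hoxa11 was under 1.2 CPM in every library, and its groups overlapped (−3.04 ± 0.71). Hoxb1, a gene of the hindbrain, had 3.94, 3.83, 4.29 and 5.24 CPM in the initial segment against 1 count in the ductules, a ratio of 308 (55.3 to 12166), and it was highest of the 7 regions in the initial segment. Neighboring Hox genes overlap antisense transcripts, and the strand setting of the counting is not given in the sources used here.

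**Figure D3:**
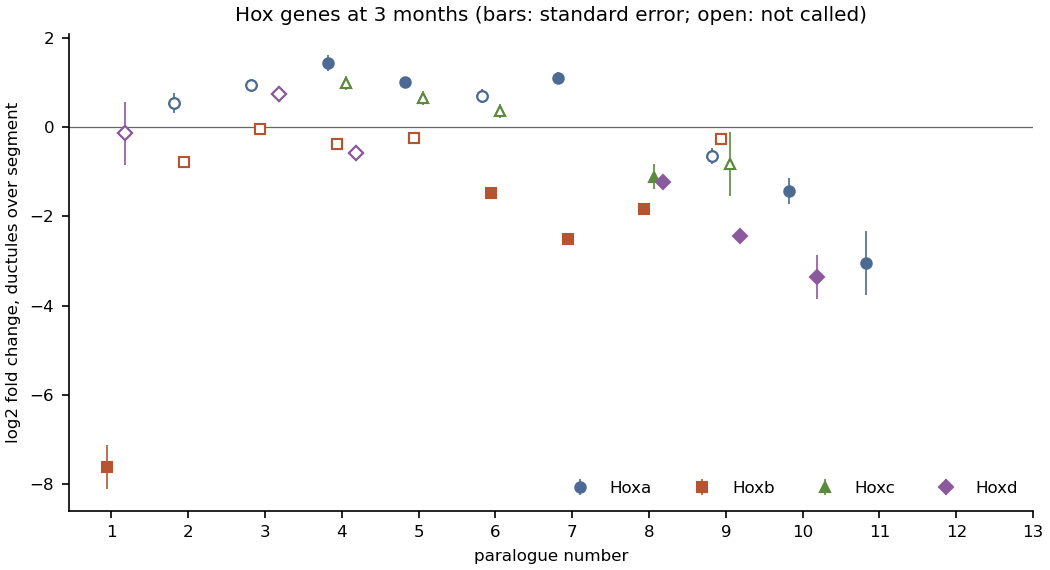
Fitted log2 fold change of the tested Hox genes reported here, at 3 months by paralogue number. Points are filled where called and positive where the efferent ductules are higher, with bars for the approximate standard errors derived from the F statistic. On TMM-scaled libraries no member shown with a number above 7 lies above 0, and Hoxb1 lies at −7.62.

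Among 24 tested tight junction genes (30 on the list), 8 were higher in the ductules and 7 in the initial segment, with a median of −0.19. Cldn4 had 1.96 to 3.19 CPM in the ductules and 173, 152, 153 and 178 CPM in the initial segment (−6.05 ± 0.12, adjusted p = 2.75e-17), and Cldn8, a sodium-barrier claudin, 0.0569 to 0.515 against 18.9 to 35.2 CPM (−6.26 ± 0.33). Cldn14 had 76.2 to 105 CPM against 3 counts, a ratio of 2055 (703 to 9965), and Cldn16 0.540 to 1.11 CPM against none, at least 19.8-fold higher. Cldn9 (6.71 to 10.1 against 0.251 to 0.848 CPM, 3.83 ± 0.27) and Cldn22 (2.36 to 2.61 against 0 to 0.419 CPM, 4.17 ± 0.50) led in the ductules.

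Markers of other epithelial cell types also differed. Trp63, the master regulator of basal cells, had 0.522 to 1.19 CPM in the ductules and 182, 175, 167 and 139 CPM in the initial segment (−7.41 ± 0.15, adjusted p = 4.49e-16). The basal keratin Krt5 had 0 to 0.116 against 48.6 to 51.5 CPM (−9.60 ± 0.20), and Krt15 had 10.6 to 14.996 CPM against no count, at least 317-fold higher. In all, 6 of 8 basal markers were higher in the initial segment and none in the ductules, with summed levels of 666 to 775 and 860 to 1023 CPM. The 6 narrow and clear cell genes were split. Foxi1, the factor of proton-secreting cells, had 16.9, 21.7, 19.2 and 46.7 CPM in the initial segment against 3 counts in the ductules, a ratio of 620 (212 to 3009), and the proton pump subunit Atp6v0d2 had 109 to 137 against 0.171 to 0.638 CPM (−8.57 ± 0.18). The subunits Atp6v0a4 (2.96 ± 0.10) and Atp6v1c2 (1.81 ± 0.15) were higher in the ductules.

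The 12 genes with the largest fold toward the ductules, among those at 50 CPM or more, included 5 of the 11 adipocyte markers, and the adipocyte list moved with the region. In it 9 of 11 genes were higher in the ductules and none in the initial segment, with a median of 6.19. Plin1, the coat protein of fat droplets, had 78.1, 108, 53.9 and 91.0 CPM in the ductules and 0.670, 0.259, 1.11 and 0.309 CPM in the initial segment (7.13 ± 0.41, adjusted p = 2.16e-06). The complement factor Cfd had 185 to 342 against 0.324 to 3.60 CPM (6.98 ± 0.47), Cidec 59.8 to 140 against 0.130 to 1.66 CPM (6.398 ± 0.50), Car3 337 to 568 against 1.10 to 10.8 CPM (6.19 ± 0.55) and Fabp4 135 to 240 against 0.648 to 4.501 CPM (6.08 ± 0.47). Adipoq, which fat cells alone are known to make in quantity, had 33.9 to 62.5 against 0.130 to 0.762 CPM (6.67 ± 0.39). The summed level was 1040 to 1819 CPM in the ductules and 26.1 to 62.4 CPM in the initial segment. Hp (haptoglobin, 5.74 ± 0.25) and Pck1, the rate-limiting enzyme of gluconeogenesis (4.69 ± 0.31), are made by fat as well as by other tissues. By the study's methods, fat and surplus connective tissue were taken off before the regions were dissected. The part of fat in their values was not tested. Other leading genes were Adam11 (110 to 135 against 2.85 to 5.33 CPM, 5.13 ± 0.16), the nicotinic receptor subunit Chrna2 (121 to 140 against 2.47 to 6.23 CPM, 4.82 ± 0.18), Unc5cl (4.78 ± 0.16) and Ttc34 (4.71 ± 0.21).

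The 12 genes with the largest fold toward the initial segment were mostly secreted proteins already described. Gm4846 (chr1:166483613-166497588) led, with 6621, 6522, 6028 and 4914 CPM against 1 count in the ductules, a ratio of 428795 (76960 to 16936500). 9230110F15Rik had 1030, 1272, 1495 and 1302 CPM and no count in the ductules, at least 30261-fold higher. The organic anion transporter Slco4c1 (243 to 311 CPM) and Asb18 (252 to 292 CPM), a substrate adaptor for ubiquitin ligases, also had no ductule count and were at least 6442-fold and 6409-fold higher. All 12 had their highest mean of the 7 regions in the initial segment.

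Counts of markers of other tissue components are to be read against the 34.4% of all genes called. Matrix and fibroblast genes were higher in the ductules in 9 of 10 cases, with summed levels of 3069 to 3582 against 1246 to 1962 CPM, and the exception was Pdgfra, at 184 to 207 against 524 to 596 CPM (−1.54 ± 0.07). Smooth muscle genes summed to 1301 to 1481 CPM in the ductules and 3774 to 4550 CPM in the initial segment, of which Actg2 alone had means of 11.5 and 2326 CPM, and 1 of the 10 was called on each side. Of 12 macrophage genes, 2 were higher in the ductules, among them the scavenger receptor Cd163 (38.4 to 58.0 against 3.09 to 5.53 CPM, 3.32 ± 0.18), with sums of 419 to 493 and 335 to 346 CPM. Of 15 T and B cell genes, 4 were higher in the ductules and 1 in the initial segment, at sums of at most 20.6 CPM. Of 12 endothelial genes, 2 were higher in the initial segment. Of 5 mesothelial genes 4 were higher in the ductules and 1, Upk1b (−4.30 ± 0.19), in the initial segment. The mesothelial sums went the other way, at 59.0 to 112 CPM in the ductules and 159 to 179 CPM in the initial segment. Nerve markers gave 2 of 6 genes higher in the ductules, and Leydig cell markers, at sums of 7.79 to 10.6 CPM, 1 on each side of 8. Skeletal muscle markers gave 1 and 2 of 7, at sums of at most 9.25 CPM. These last calls were not stable: that of the Leydig list for the initial segment was lost without ductule replicate 1 or 3 or initial segment replicate 1, 2 or 3 and with the replicate block. The 2 of skeletal muscle fell to 0 without initial segment replicate 4 and to 1 without ductule replicate 1 or 4 or initial segment replicate 1 or 3, and its 1 rose to 2 without initial segment replicate 1. No Sertoli or red blood cell marker was called in the main fit. Without initial segment replicate 1, on library sizes only or with all 7 regions fitted, 1 Sertoli marker was called for the ductules. Without ductule replicate 3, 1 red blood cell marker was called for the initial segment. Germ cell transcripts summed to 133, 118, 421 and 123 CPM in the ductules and 152, 233, 78.2 and 168 CPM in the initial segment, with 2 of 22 genes higher in the ductules and 1 in the initial segment. Without ductule replicate 3, the high one, 6 were higher in the initial segment. The part of these components in the epithelial differences was not tested.

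Transcripts of each region were followed into the libraries of the other, for list members at least 4-fold apart. At 3 months the initial segment libraries held the axoneme genes at a median of 10.2%, 10.5%, 10.4% and 6.01% of the ductule mean over 43 genes, the brush border genes at 5.97% to 6.79% and the endocytic genes at 5.07% to 5.98%. In the other direction the ductule libraries held lipocalins, cystatins and defensins at medians of no more than 0.0620% of the initial segment mean. The median of the other secreted proteins was 0.639% in replicate 1 and 0.0198% to 0.0438% in the rest. As a sum, which includes Lcn2 and Ptgds, the lipocalins had 620 to 854 CPM in the ductules and 22545 to 25079 CPM in the initial segment. The members were chosen as at least 4-fold apart, which limits these percentages. Ductule replicate 1 was also the library with the highest Gpx5 and Lcn5. Whether the traces in the initial segment come from ductule tissue in the dissection or from cells of the initial segment was not tested.

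**Figure D4:**
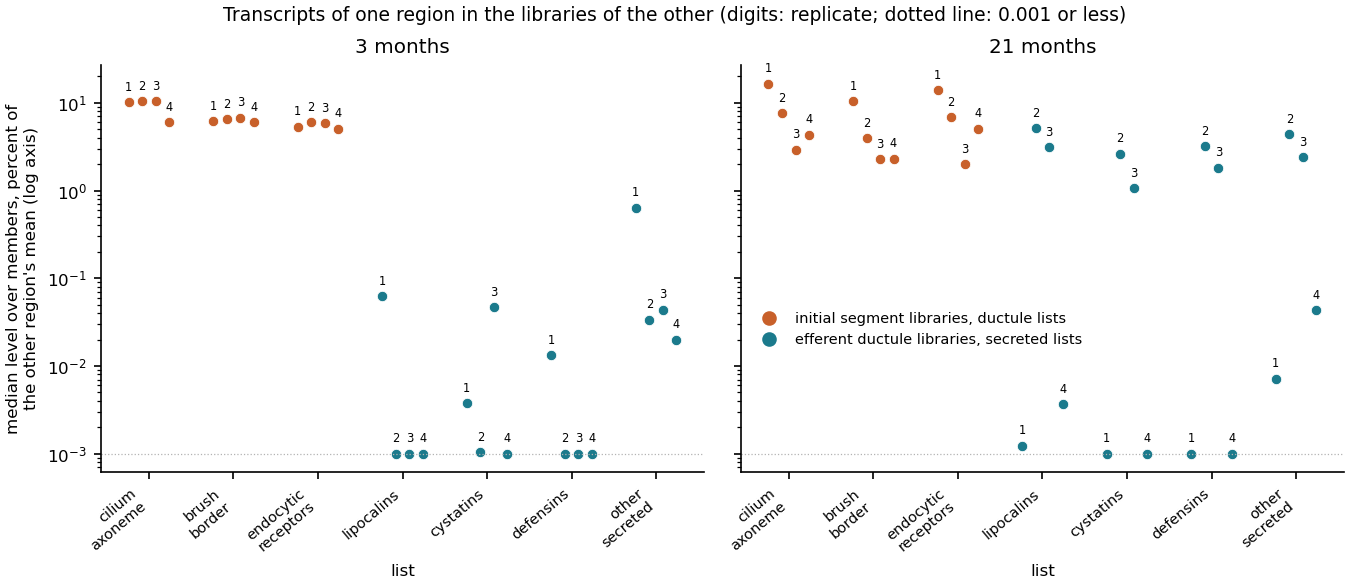
Median level of the members of 7 lists in libraries of the other region, as a percent of the region in which they are higher (log axis), at 3 and 21 months, with digits giving the replicate. At 21 months ductule replicates 2 and 3 hold the lipocalins at 5.17% and 3.12%, and replicates 1 and 4 hold them at 0.00123% and 0.00365%.

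At 21 months 25457 genes were tested, and 5490 (21.6%) were higher in the ductules and 4423 (17.4%) in the initial segment. Of the 3-month calls, 4106 were called again for the ductules, which is 74.9% of the 3-month list and 74.8% of the 21-month list, and 2716 for the initial segment, which is 75.5% and 61.4%. Opposite calls were made for 45 and 7 genes. The signs were the same for 5043 of 5223 ductule genes and 3431 of 3498 initial segment genes tested at both ages. All 44 axoneme genes were called again, with a median of 3.65, as were all 9 endocytic genes, each in its direction. Of the initial segment calls, 21 of 26 endoplasmic reticulum genes, 21 of 27 defensins and 17 of 20 other secreted proteins recurred. So did 7 of 10 Hox genes for the initial segment and 9 of 11 multiciliated regulators for the ductules. The 1 water channel called for the initial segment was not called again. Germ cell genes went from 2 of 22 higher in the ductules at 3 months to 16 of 21 at 21 months, while the difference between ages itself was called for 4 of 22, with summed levels of 174 to 259 CPM in the old ductules and 23.7 to 58.6 CPM in the old initial segment. Foxj1 differed by 4.55, Lrp2 by 4.27, Slc9a3 by 4.34 and Esr1 by 2.86 at 21 months.

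The region effect itself differed between ages for 608 of 28545 genes (2.13%), tested as the interaction of region and age. In 236 (0.827%) the fold toward the ductules was larger at 21 months and in 372 (1.3%) smaller. With the replicate number as a block these counts were 97 and 155, and without single libraries the first ran from 118 to 381 and the second from 246 to 427. Of the 236, 125 had been called higher in the initial segment at 3 months, and of the 372, 115 higher in the ductules. The 5 largest differences among genes of at least 10 CPM were those of Gm4846 (12.01 ± 2.91, adjusted p = 0.0387), Lcn8 (10.74 ± 2.57, adjusted p = 0.0373), Lcn9 (10.61), Adam28 (10.46) and Lcn10 (10.37). None of the 5 was called with the block (adjusted p = 0.269 to 0.385, edgeR) or by DESeq2, which gave no adjusted p for them. On the scale of all 16 libraries, Lcn8 had 0.220, 0.112, 0 and 0 CPM in the 3-month ductules and 0.0987, 415, 161 and 0.298 CPM in the 21-month ductules, against 7669 to 9262 and 7208 to 9019 CPM in the initial segment. Gm4846 had 0 to 0.0550 CPM in the 3-month ductules and 0, 251, 95.6 and 0 CPM in the 21-month ductules. The high values lay in 2 of the 4 old ductule libraries, the same that held other secreted transcripts of the initial segment at a median of 1.06% to 5.17%. The part of initial segment tissue in these libraries was not tested. Initial segment replicate 1 of 21 months stood apart in the other direction, with the axoneme genes at a median of 16.5% of the ductule mean against 2.91% to 7.60% in the other 3 libraries, the brush border genes at 10.4% against 2.29% to 3.96% and the endocytic genes at 13.99% against 1.98% to 6.85%.

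Without 21-month ductule replicates 2 and 3, a choice made after seeing the data, none of these 5 genes was still called. Neither was any of the 14 secreted list members called with all libraries. Of the 27 list members called with all libraries, cell type markers included, 8 remained. Among the 8 were Atp6v0d2, at 0.163 to 0.605 CPM in the 3-month ductules and 1.39 to 6.01 CPM in the 21-month ductules (3.87 ± 0.45), Sdf2l1 (1.48 ± 0.20) and Krt5 (5.03 ± 0.90). The others were Sec61b (1.202), the germ cell genes Tnp2 (3.95), Prm1 (2.81) and Tssk6 (2.02), and the carbonic anhydrase Car4, which went the other way (−2.53). In the fit without the 2 libraries the difference of Krt5 fell to 2.81. Those of Atp6v0d2, Sdf2l1 and Sec61b were 3.38, 1.31 and 1.52, and those of Tnp2, Prm1, Tssk6 and Car4 were 4.30, 3.01, 1.87 and −2.57. The count over all genes rose to 703 and 925, of which 150 and 326 were shared with the fit of all libraries.

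**Figure D5:**
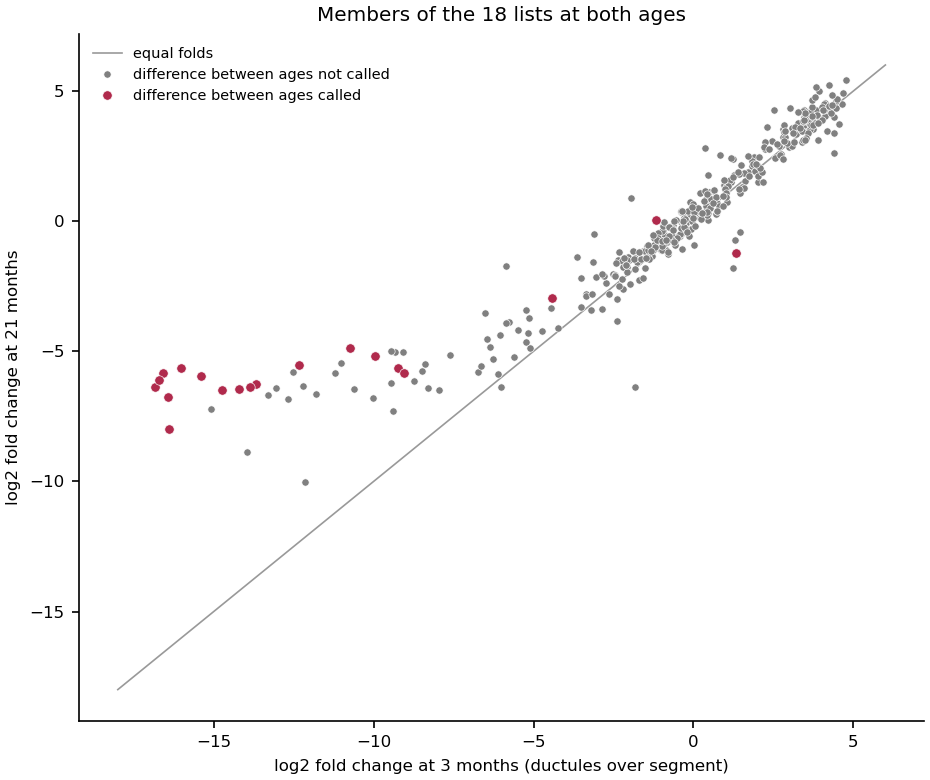
Fitted log2 fold change (ductules over initial segment) of 379 list members at 3 months (horizontal) and 21 months (vertical), with the 19 members whose fold differed between ages in red. Most members above 0 lie near the line of equal folds, with Car4 called below it, and those under −10 at 3 months lie above it.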

How the data were processed

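Whole-tissue RNA of the efferent ductules and initial segment of C57BL/6 mice was sequenced by the authors as stranded total RNA, in paired ends. The labels name TRIzol for the extraction and the study's methods an RNeasy kit. The authors deposited read counts per Ensembl gene as whole numbers without normalization. The submitters' processing notes name cutadapt, HISAT2, HTSeq and mm10, and versions, annotation release, counting mode and strand setting are not given in the sources used here. GENCODE M21 gave a symbol to 53274 of 53379 genes, and RefSeq the promoter windows.

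Groups follow the region, age and replicate number of the labels, and no pair of libraries was identical. The 4 libraries of a group are separate samples by their labels. The methods say that regions came from the same mice, but the labels give only numbers, so no pairing was used. Deviations of same-numbered 3-month libraries did not correlate (mean r = −0.132). With 4 libraries a region, this cannot show whether a number marks a mouse. P-values measure the spread between these samples.

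Genes with at least 10 counts in the fitted libraries were tested with the quasi-likelihood test of edgeR 4.0.16 (R 4.3.3) on TMM-scaled libraries, with Benjamini-Hochberg adjustment over all genes, at an adjusted p under 0.05 and at least 2-fold. All adjusted p-values are from this test. DESeq2 1.42.0, other scalings, filters, a replicate block and leaving out libraries were alternatives. The scripts were tested on simulated data. Named genes were the 12 with the largest fold in each direction (at least 50 CPM, no overlap between groups and the lowest library at 50% of the mean or more), the 2 to 6 leading called members of each list with its defining genes, and the 5 with the largest interaction at 10 CPM or more. Exceptions to a list's direction, uneven members and markers of other cell types were named after their values were seen. The members and lists were chosen with earlier results of these data known. With 1 to 3 counts in a group the ratio of levels is given with its exact Poisson interval, and with 0 counts a lower bound against a floor of 3 counts over the group. Some genes are not reported here.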

Additional observations from a re-analysis of the deposited data

Results flagged for a closer look

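Among 312 groups of 4 libraries at 3 months, covering the named genes and the summed lists, 25 (8.01%) held a library far from the other 3 by Dixon's ratio of gap to range (95% critical value). Chance flags about 1 in 20 such groups. Initial segment replicate 4 held 10 of them. In that library Clu (1456 CPM), Cst8 (1635 CPM), Defb20 (5206 CPM), Ces5a (68.3 CPM), Ggt1 (68.6 CPM), Foxi1 (46.7 CPM), Esr2 (14.3 CPM) and Dnah6 (19.4 CPM) stood apart, as did the summed beta-defensins (16068 CPM) and ion transporters (1860 CPM). Of these, Cst8, Dnah6 and the ion transporter sum were low and the others high. Elsewhere in the initial segment, Slc26a3 (14.1 CPM), Lrpap1 (230 CPM) and the summed nerve markers (34.7 CPM) stood apart in replicate 1, and Adam11 (5.33 CPM) and the summed matrix genes (1962 CPM) in replicate 3. In the ductules, replicate 1 stood apart for Gpx5 (8.75 CPM) and Gstm3 (2.49 CPM), and replicate 2 for Unc5cl (125 CPM), Slc12a2 (251 CPM) and Scnn1g (1.89 CPM). Ductule replicate 3 stood apart for Pax2 (47.1 CPM), the sperm protamine Prm1 (29.5 CPM), Tnp2 (7.72 CPM), the summed lysosomal genes (2006 CPM) and the summed germ cell genes (421 CPM).

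For 23 named genes the region effect differed between 3 and 21 months by the interaction test (edgeR, adjusted p under 0.05 and at least 2-fold), and in all of these but Car4 (−2.53) the log2 fold toward the ductules was larger at 21 months. The differences were 12.01 for Gm4846, 10.74 for Lcn8, 10.61 for Lcn9, 10.46 for Adam28, 10.37 for Lcn10, 9.68 for 9230104L09Rik, 9.44 for Rnase10, 8.40 for Cst11, 8.28 for Ly6g5c, 7.76 for Defb48, 7.49 for Ovch2, 7.40 for Defb25 and 6.81 for Lcn6. They were 5.89 for Cldn14, 5.03 for Krt5, 4.82 for Krt15, 3.95 for Tnp2, 3.87 for Atp6v0d2, 2.81 for Prm1, 2.02 for Tssk6, 1.48 for Sdf2l1 and 1.202 for Sec61b. With 21-month ductule replicates 2 and 3 left out, Krt5, Atp6v0d2, Sdf2l1, Sec61b, Car4, Tnp2, Prm1 and Tssk6 were still called and the other 15 were not.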

How the results depend on the processing

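At 3 months, fits without 1 library gave 5210 to 5581 genes higher in the ductules and 3210 to 3751 in the initial segment. DESeq2 gave 5231 and 3360, and leaving out ductule replicate 3 and initial segment replicate 4 together, chosen after seeing the data, 5372 and 3582. Library sizes without TMM gave 7781 and 2298, a 4-fold threshold 3176 and 1740, and no fold threshold 7954 and 7788. At 21 months the 4-fold threshold gave 3236 and 2242 and no fold threshold 7260 and 7086, and fits without 1 library gave 5133 to 5510 and 4102 to 4498. For the age difference (236 and 372 genes), DESeq2 gave 418 and 513, library sizes only 138 and 1194, an unadjusted p 1104 and 1346, and fits without 1 library 118 to 381 and 246 to 427. The larger-fold count moved by over 1.5 times without 3-month ductule replicate 1 (126), 3 (381) or 4 (118), 21-month ductule replicate 1 (372), 3-month initial segment replicate 3 (140) and 21-month initial segment replicate 2 (121) or 4 (128), and the smaller-fold count without 21-month initial segment replicate 2 (246). The fit without 21-month ductule replicates 2 and 3 gave 703 and 925. The cause of these shifts was not tested.

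With the replicate number as a replicate block, the counts were 5130 and 3434 at 3 months, 5113 and 4161 at 21 months, and 97 and 155 for the age difference. Same-numbered libraries deviated together with a mean r of −0.132 at 3 months (−0.288 to 0.0158) and 0.0466 at 21 months (−0.0394 to 0.113). Whether a number marks a mouse is not given in the sources used here.

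Of the checks of named genes at 3 months under the alternatives, 2695 kept their direction and side of the threshold, 17 lost the call, 5 gained it and 1 turned: Ptpn6, at 0.13 on library sizes only. The age differences of Gm4846, Lcn8, Lcn9, Adam28 and Lcn10 lost their calls under the replicate block and in most fits without 1 library. DESeq2 gave no adjusted p for these genes and did not call them either. Over all fits without 1 library their size lay between 9.32 and 13.48 and their adjusted p between 0.00846 and 0.114. Without 21-month ductule replicates 2 and 3 that of Gm4846 turned to −1.32 (adjusted p = 0.716). Ductule levels of genes such as Crisp4, Lcn10 and Gm4846 rest on 0 or 1 count over 4 libraries, so depth limits how large their folds can be shown to be.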
